A study of Mus musculus with 6 samples.

Results

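The genes described here are the nuclear genes for subunits of the oxidative phosphorylation complexes. They were measured in mouse primary somatosensory (S1) cortex that received whisker stimulation (WS) or no stimulation (NS). They were chosen by symbol alone, as the genes named Nduf with a subunit letter and number, Sdha to Sdhd, Uqcr, Cox4 to Cox8 and Atp5. Of 84 matching rows, 1 was left out (Ndufa4l2), which gave 83 of the 14824 genes listed. By complex, 36 belonged to complex I, 4 to complex II, 8 to complex III, 18 to complex IV and 17 to complex V. Ndufa4 was counted with complex IV, of which its protein is now held to be a subunit.

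Oxidative phosphorylation is the process by which mitochondria pass electrons from nutrients to oxygen and use the proton gradient so made to produce ATP. Complex I (NADH dehydrogenase) and complex II (succinate dehydrogenase) feed electrons in, complex III (cytochrome bc1) and complex IV (cytochrome c oxidase) carry them to oxygen, and complex V is the ATP synthase. Most subunits are encoded in the nucleus and imported, while a few core subunits of every complex except complex II are encoded by mitochondrial DNA. Neurons depend heavily on this pathway to restore ion gradients after firing.

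The study raised wild-type male C57B6 mice, stimulated the whiskers by hand once a day and took S1 cortex at postnatal day 21, 90 min after the last stimulation. There were 3 WS libraries and 3 NS libraries, the latter labelled NW control and given no treatment, all of total RNA from bulk tissue. RNA was accepted with an integrity number above 2. The study describes the cortex of the unstimulated side as its control and gives 3 mice for the RNA-seq, but the labels do not tie libraries to animals or sides.

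The libraries held 15660395 to 17276168 counts over the listed genes, and the 83 genes took 1.07% to 1.24% of them. None of the 13 mitochondrially encoded subunit genes is among the listed genes, so the nuclear and mitochondrial parts of a complex could not be compared. In bulk tissue, fewer cells of a type and less RNA per cell cannot be told apart. The labelled tissue carried its markers: summed counts scaled to a library of 1000000 counts (CPM) of 8 neuronal genes were 8702 to 9103 across the libraries. All 8 oligodendrocyte markers had positive log2 fold changes (median 0.19), with summed CPM of 8174 to 11753 in NS and 9714 to 12996 in WS, where each WS library exceeded the NS library of the same number. All 6 striatal markers did too (median 0.24), with summed CPM of 222 to 307 in NS and 201 to 462 in WS. So did all 8 astrocyte (median 0.11), all 8 endothelial (0.13), all 6 pericyte (0.12) and 7 of 8 microglial markers (0.099), against 5 of 8 neuronal (0.024), all 5 blood (0.025) and 1 of 4 choroid plexus markers (−0.16). Summed CPM of the choroid plexus markers was 31.3, 45.7 and 74.7 in NS and 9.53, 86.1 and 43.4 in WS. Summed CPM of the endothelial markers was 165 to 172 in NS and 187 to 215 in WS, with separate groups, and their Pecam1 had a log2 fold change of 0.87 ± 0.18 (SE) with an adjusted p of 0.813 by edgeR's quasi-likelihood test. The choroid plexus marker Ttr is not among the listed genes and has no value. No other gene of these lists was at 0, and the part of these markers in the values below was not tested.

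No subunit gene was called different between WS and NS. Of the 83 genes, 81 passed the filter on low counts (all but Cox7b2 and Cox8b), and 0 of them were called by edgeR's quasi-likelihood test after Benjamini-Hochberg adjustment, where a call needed an adjusted p under 0.05 together with a log2 change beyond ±1. DESeq2 also called 0. Of all 13747 genes tested, 4 were called (0.0291%). At an unadjusted p under 0.05, 0 subunit genes were higher and 0 were lower in WS, where 0.866% and 0.327% of all genes were. In 0 subunit genes did all WS libraries lie above all NS libraries (3.11% of all genes), and in 1, Cox6b2, they all lay below (3.16% of all genes).

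Fold changes were small and divided between both directions. Log2 fold changes were positive in 35 genes and negative in 46, with a median of −0.020, against 0.0074 over all genes tested. They ran from −0.36 for Cox6b2 to 0.26 for Cox6a2. The division itself rested on single libraries: without NS replicate 2 only 9 of the 81 were higher in WS, without NS replicate 3 there were 57, and without WS replicate 1 there were 21. The median moved between −0.065 and 0.058 over these fits.

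The intervals show the precision of the fold change of each gene in bulk tissue. The median standard error was 0.095 on the log2 scale, and the 95% interval lay within ±0.5 for 77 of the 81 genes and within ±1 for 80. The exception at ±1 was Cox7a1, a gene with 5 to 20 counts per library, whose interval reached 1.20. In the 78 subunit genes that averaged 100 counts or more, the intervals reached no higher than 0.69 (Cox6a2) and no lower than −0.41 (Ndufb6).

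**Figure D1:**
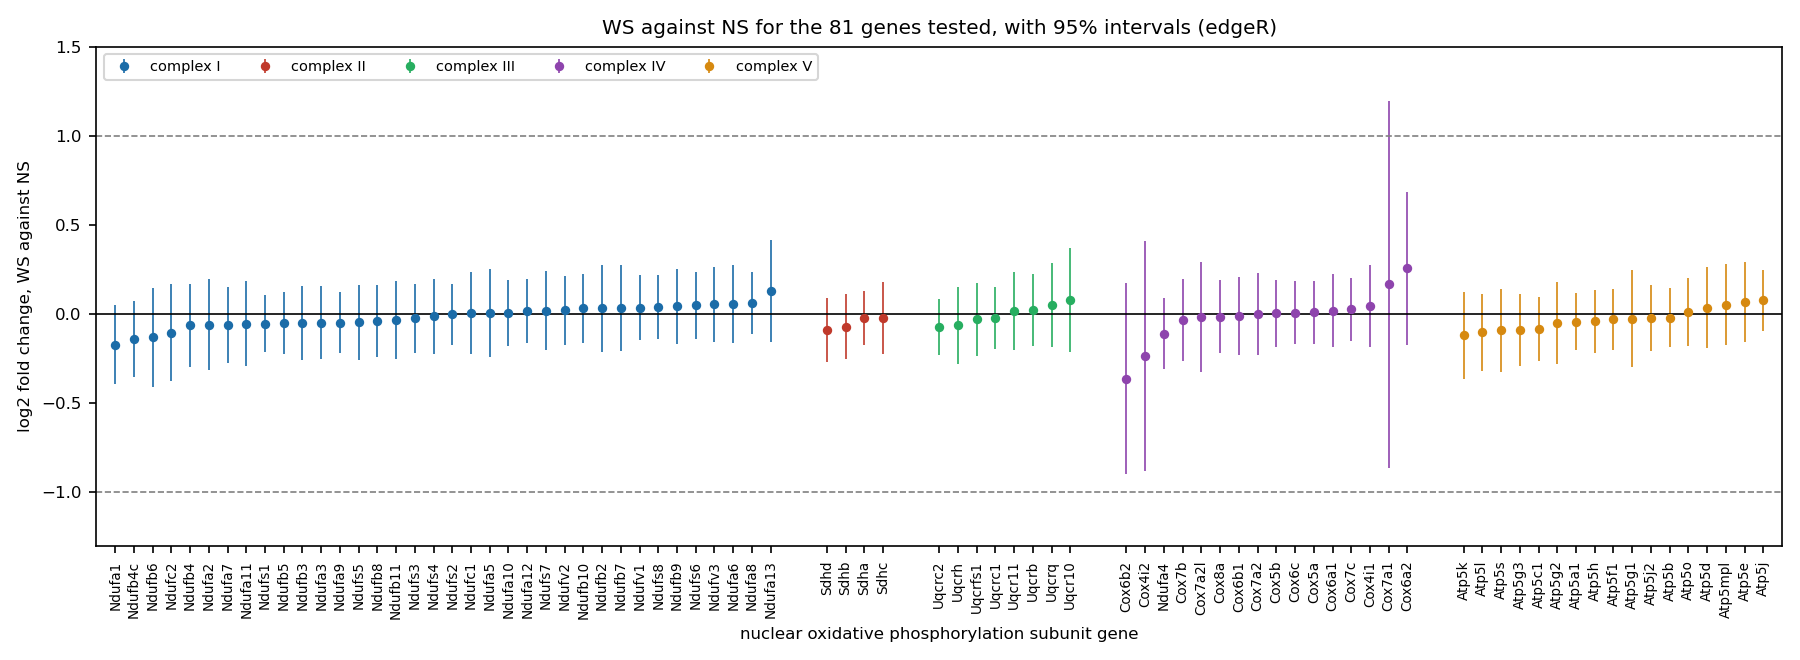
Log2 fold change of WS against NS (y axis) for the 81 subunit genes tested (x axis), grouped and coloured by complex and ordered within it, with 95% intervals from edgeR as bars and dashed lines at ±1. All 81 intervals cross 0, and the widest belong to the low-count complex IV genes Cox7a1, Cox4i2 and Cox6b2.

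Complex I had 17 genes with positive and 19 with negative fold changes, with a median of −0.0067. Ndufa1, a small membrane subunit needed to assemble the complex (chromosome X, 37187588 to 37191163), had the lowest unadjusted p of the 81 genes tested. Its CPM was 37.7, 31.3 and 37.0 in NS and 31.2, 33.1 and 29.9 in WS. The NS 2 library lay inside the WS range, so the groups overlapped. The log2 fold change was −0.17 ± 0.10 (SE, n = 3 and 3), with an unadjusted p of 0.120 and an adjusted p of 0.9998 by edgeR's quasi-likelihood test. With each library's trend on transcript length and GC content removed, its unadjusted p was 0.041 and its adjusted p still 0.9997 by the same test.

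At the other end of complex I stood Ndufa13, a subunit also known as GRIM-19, with a log2 fold change of 0.13 ± 0.13 (SE). Its CPM was 113, 92.3 and 116 in NS and 144, 104 and 104 in WS. Only the WS 1 library stood above the NS range, and without it the log2 fold change was −0.043. Ndufa8, a subunit facing the intermembrane space, had 80.4, 76.6 and 86.4 CPM in NS and 87.9, 85.6 and 80.9 in WS, for a log2 fold change of 0.06 ± 0.08 (SE). Here too the groups overlapped, with the libraries of both groups interleaved. Ndufb9 had the highest level per length of the complex, at 220 ± 30 CPM per kb of transcript (NS) and 227 ± 4.5 (WS; SD, n = 3).

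Ndufb4 and Ndufb4c were counted as uncertain, since their counts computed back from the table were not whole in every library but summed to a whole number within 0.07 in each. Their reads appear to have been divided between them before deposit. GENCODE annotates Ndufb4c as a processed pseudogene, on chromosome 15 from 73809507 to 73809896. Ndufb4c alone had 22.3, 23.3 and 23.1 CPM in NS and 20.8, 22.4 and 19.1 in WS, a log2 fold change of −0.14 ± 0.10 (SE). WS 2 lay just above NS 1, and the groups overlapped. The sum of both was 81.7 ± 8.66 CPM in the NS libraries and 77.1 ± 3.04 in the WS libraries (SD, n = 3), a ratio of 0.944. Uqcrc2 (3133.18 counts in NS 1) and Ndufa13 (1872.49 in NS 3) also gave counts that were not whole, so their values are uncertain as well.

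Complex II was the one complex in which every gene had a negative fold change, all 4 of them small and none with separate groups. Sdha carries the flavin and Sdhb the iron-sulphur clusters of the catalytic part, and Sdhc and Sdhd anchor them in the inner membrane. Sdha had 324, 301 and 306 CPM in NS and 306, 305 and 306 in WS, and Sdhb had 125, 116 and 138 in NS and 123, 123 and 116 in WS. In both, the WS values fell among the NS values or at their lower edge. For Sdhc the CPM was 106, 102 and 117 in NS and 117, 108 and 94.6 in WS. Sdhd had 71.8, 69.2 and 75.2 in NS and 70.9, 69.5 and 62.6 in WS. The low value in both anchors was WS 3. The log2 fold changes were −0.022 for Sdha, −0.069 for Sdhb, −0.020 for Sdhc and −0.091 for Sdhd, with standard errors of 0.070 to 0.093. Sdha varied least of the 83 genes across the 6 libraries, with a coefficient of variation of 2.59%. Without NS replicate 3, 2 of the 4 were higher in WS.

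In complex III, 4 genes were higher and 4 lower, with a median of −0.0021. Uqcrc2, one of the core proteins, had 197, 188 and 201 CPM in NS and 176, 192 and 191 in WS, a log2 fold change of −0.070 ± 0.073 (SE). WS 1 was its lowest library. Uqcrh, the hinge protein that helps cytochrome c dock, had 97.6, 87.3 and 116 in NS and 93.5, 96.0 and 98.7 in WS. All 3 WS values lay inside the NS range. Uqcr10, a small subunit and the highest of the complex per length, had 101, 82.0 and 111 in NS and 125, 95.2 and 90.7 in WS, a log2 fold change of 0.080 ± 0.13 (SE). Uqcrq, another small subunit, had 118, 113 and 138 in NS and 145, 126 and 111 in WS. The highest library of both was WS 1, and their other WS values lay within or at the edge of the NS range.

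Complex IV held 9 genes with positive and 7 with negative fold changes among 16 tested, with a median of 0.0041. The extremes of the whole list were here, both of them restricted isoforms. Cox6b2, the isoform of subunit 6b best known from testis (chromosome 7, 4751792 to 4753094), had 32, 31 and 29 counts in NS and 29, 20 and 24 in WS. Scaled to library size this was 2.02, 1.93 and 1.80 CPM against 1.72, 1.24 and 1.52, the one gene with separate groups. Its log2 fold change was −0.36 ± 0.24 (SE), with a 95% interval from −0.90 to 0.18 and an unadjusted p of 0.168 by edgeR's quasi-likelihood test. Cox6a2, the muscle and heart isoform of subunit 6a, had 12.4, 8.98 and 11.6 CPM in NS and 17.7, 10.4 and 11.2 in WS. The difference lay in WS 1: the log2 fold change was 0.26 ± 0.20 (SE) with it and −0.021 without it.

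Several complex IV subunits exist as paired isoforms, one broad and one restricted to certain tissues, and in S1 cortex the broad isoform made up nearly all of each pair. Taken per kb of transcript and as a share of the pair, Cox4i2, an isoform linked to oxygen sensing, was 0.347% ± 0.115 in NS and 0.289% ± 0.0645 in WS (SD, n = 3). Cox6a2 was 2.36% ± 0.320 in NS and 2.74% ± 0.589 in WS. Cox6b2 was 0.938% ± 0.155 in NS and 0.725% ± 0.110 in WS. The shares of Cox6a2 ran higher than those of any other restricted isoform in every library. Cox7a1, the muscle isoform of subunit 7a, was 1.07% ± 0.242 in NS and 1.19% ± 0.646 in WS. Cox8b, a muscle isoform with 2 to 7 counts per library, was 0.0706% ± 0.0407 in NS and 0.0851% ± 0.0301 in WS. Cox7b2, with 2, 1 and 1 counts in NS and 4, 2 and 5 in WS, was 0.117% ± 0.0535 in NS and 0.322% ± 0.145 in WS, and at these counts a difference was not detectable.

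The broad isoforms carried the bulk of complex IV, with log2 fold changes near 0. Cox4i1 had 452, 404 and 499 CPM in NS and 528, 458 and 412 in WS, and Cox6a1 had 373, 351 and 421 in NS and 425, 385 and 351 in WS. Cox8a, the highest of all 83 genes per length at 1172 CPM per kb, had 625, 618 and 700 CPM in NS and 717, 628 and 580 in WS. In these 3 genes WS 1 was the highest library. For Cox6b1 the values were 229, 200 and 260 in NS and 245, 230 and 210 in WS, for Cox7a2 109, 91.7 and 123 in NS and 112, 112 and 100 in WS, and for Cox7b 132, 116 and 155 in NS and 121, 141 and 131 in WS. Their highest library was NS 3 and their lowest NS 2, so the WS values fell between NS libraries. The log2 fold changes of these 6 genes lay between −0.034 (Cox7b) and 0.045 (Cox4i1). Cox7a2l, which helps join complexes III and IV into supercomplexes, had 112, 93.2 and 145 in NS and 112, 105 and 131 in WS, with a log2 fold change of −0.014 ± 0.14 (SE).

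In complex V, 5 genes had positive and 12 negative fold changes, with a median of −0.028. Atp5b, the catalytic beta subunit, led the complex per length at 598 ± 11 CPM per kb (NS) and 590 ± 27 (WS; SD, n = 3). Its CPM was 1131, 1138 and 1169 in NS and 1179, 1134 and 1077 in WS, and its log2 fold change was −0.020 ± 0.076 (SE). The other subunits named by the ends of the list lay within 0.12 of 0. Atp5k (subunit e) and Atp5l (subunit g), small membrane subunits involved in joining synthase dimers, had log2 fold changes of −0.12 ± 0.11 and −0.10 ± 0.10 (SE). Atp5k had 365, 318 and 410 counts in NS and 378, 337 and 313 in WS. Atp5l had 127, 118 and 151 CPM in NS and 132, 124 and 114 in WS. In both the groups overlapped. On the positive side, Atp5j (coupling factor 6, in the peripheral stalk) had 121, 108 and 125 in NS and 127, 125 and 121 in WS, a log2 fold change of 0.079 ± 0.079 (SE). Atp5e (subunit epsilon, in the central stalk) had 51.9, 45.5 and 54.6 in NS and 58.0, 54.3 and 47.2 in WS. Again the libraries of both groups were interleaved.

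The nuclear genes Atp5g1, Atp5g2 and Atp5g3 encode the same mature c subunit of the rotor behind different import sequences. Per kb, Atp5g1 gave 40.6% ± 1.66 of their sum in NS and 41.2% ± 2.97 in WS, Atp5g2 gave 22.6% ± 0.569 and 22.7% ± 0.524, and Atp5g3 gave 36.8% ± 2.17 and 36.1% ± 3.10 (SD, n = 3). The shares differed between groups by less than the spread between libraries. The order of the genes depends on the transcript length assumed. With the longest RefSeq-matched principal transcript of each gene, the length tried first, the share of Atp5g1 was 8.14%.

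Summed over complexes, the levels in the groups were close. Summed CPM was 2854 ± 235 in NS and 2842 ± 130 in WS for complex I, 617 ± 25.1 and 600 ± 19.1 for complex II, and 1059 ± 68.1 and 1052 ± 64.8 for complex III (SD, n = 3). For complex IV it was 2962 ± 293 in NS and 2965 ± 191 in WS, and for complex V 4037 ± 177 and 3965 ± 207. For all 83 genes the sums were 11529 ± 785 and 11424 ± 605, a WS to NS ratio of 0.991. Every difference was smaller than the SD of either group. Within the 6 libraries, the highest sum of a complex exceeded the lowest by 1.10 times (complex II) to 1.22 times (complex IV).

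**Figure D2:**
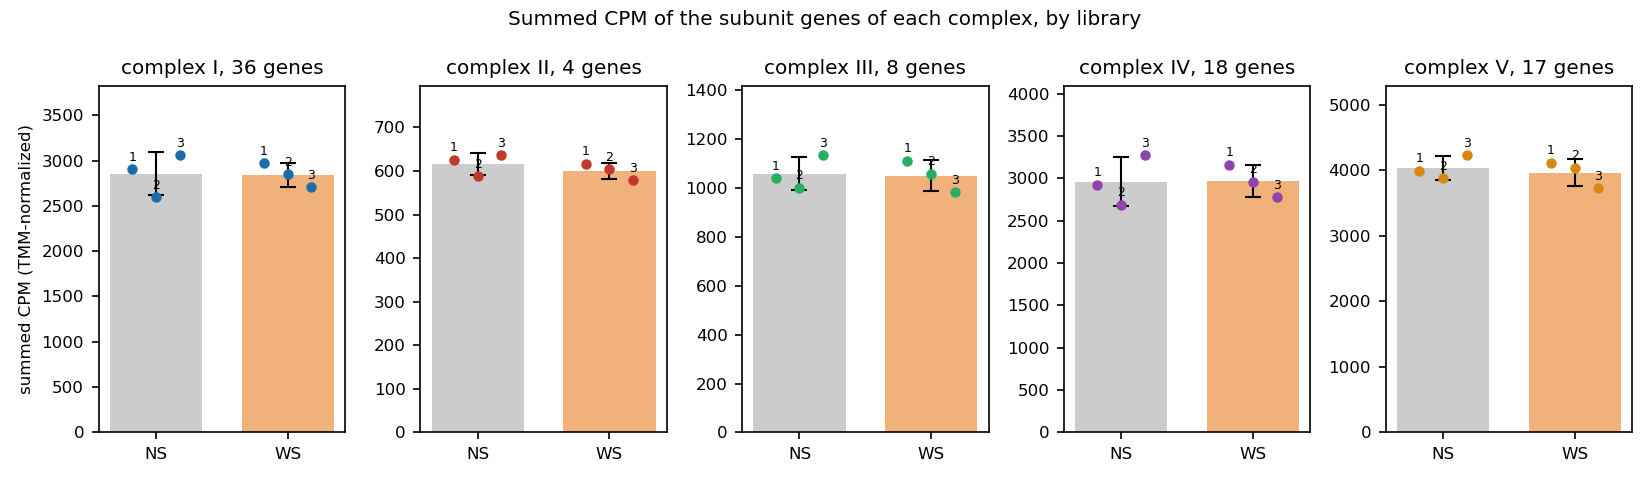
Summed TMM-normalized CPM (y axis, from 0) of the genes of each complex in NS and WS, with bars for the mean, error bars for the SD and a point for each of the 3 libraries, marked with its replicate number. In all 5 complexes the WS and NS points overlap, NS 3 is the highest library and NS 2 or WS 3 the lowest.

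The genes moved together from library to library, whatever the group. Measured as the log2 CPM of a gene minus its own mean over the 6 libraries, the median of the 81 genes was 0.016, −0.12 and 0.13 in NS 1 to 3 and 0.049, 0.0075 and −0.081 in WS 1 to 3. NS 3 was the highest library in 44 of the 81 and WS 1 in 23, while NS 2 was the lowest in 43 and WS 3 in 31. Over all 13747 genes, NS 3 was the highest in 13.1% and WS 1 in 26.3%, and NS 2 the lowest in 13.2% and WS 3 in 22.2%. The median coefficient of variation over the 6 libraries was 8.09% in the 78 genes averaging 100 counts or more, where counting error alone gives 2.41%.

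Other short transcripts also deviated by library, with an order that was like that of the subunit genes in part. The subunit genes are short: 56 of 83 (67.5%) had a transcript under 1000 nt, against 5.92% of all listed genes. In 704 other genes under 1000 nt, the medians were 0.0021, −0.11 and 0.095 in NS and 0.080, 0.0086 and −0.067 in WS. In genes of over 4000 nt the values had the opposite sign to those of the subunit genes in all 6 libraries, with 0.047 in NS 2 and −0.034 in NS 3. For 78 mitochondrial ribosomal protein genes they were 0.048, −0.088 and 0.099 in NS and 0.060, −0.011 and −0.072 in WS. The 78 cytosolic ribosomal protein genes had 0.023, −0.19 and 0.094 in NS and 0.11, −0.032 and −0.020 in WS, so that WS 1 was above NS 3 and WS 3 was near 0. With each library's trend on transcript length and GC content over all genes removed, the medians of the 81 subunit genes lay between −0.031 (WS 3) and 0.027 (NS 3), and the median SD of the 78 genes on the log2 scale was 0.0692 in place of 0.116. Over all 10876 genes averaging 100 counts or more it was 0.0925 in place of 0.118. In that fit 31 of 81 genes were higher in WS, and 0 were called.

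**Figure D3:**
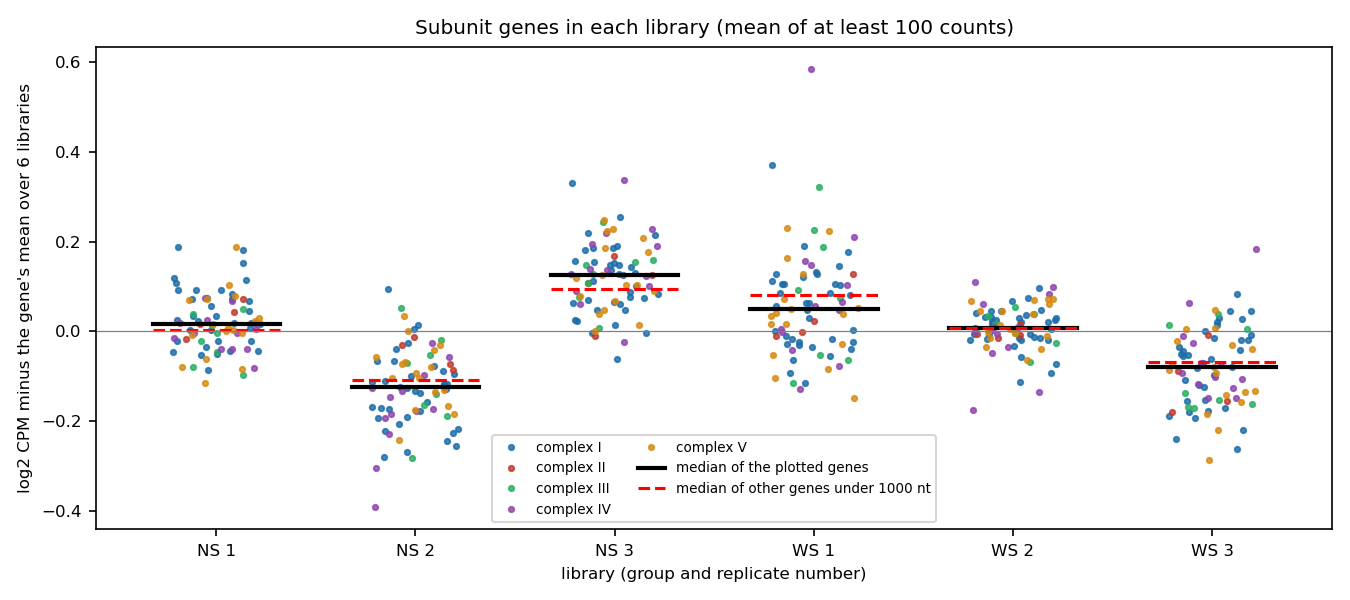
Deviation of log2 CPM from the mean of each gene over 6 libraries (y axis) in each library (x axis), 1 point for each of the 78 subunit genes averaging 100 counts or more, coloured by complex, with the median of these genes as a black line and that of the 704 other genes under 1000 nt as a red dashed line. Most points lie above 0 in NS 3 and below 0 in NS 2 and WS 3, and the red lines are displaced the same way.

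The levels of the 83 genes were high for this tissue. Per kb of transcript, their median was 106 CPM against 7.47 over the listed genes, and 71 of the 83 were in the top 10%. Complex IV had both the highest and the lowest levels, from Cox8a down to Cox7b2 at 0.285 CPM per kb. Complex I was the narrowest of the larger complexes, from 224 (Ndufb9) to 28.9 (Ndufs4, an accessory subunit of the NADH-oxidising arm). In complex III levels ran from 232 (Uqcr10) to 82.2 (Uqcrq) and in complex II from 108 (Sdhb) to 33.9 (Sdhc). The levels of Sdhb and Sdha did not differ beyond their spread (111 ± 9.9 and 107 ± 4.1 CPM per kb in NS), nor did those of Uqcr10 and Uqcr11, with means of 232 and 227. In complex V they ran from Atp5b to Atp5s at 10.6, a gene named for coupling factor B and not a structural subunit.

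**Figure D4:**
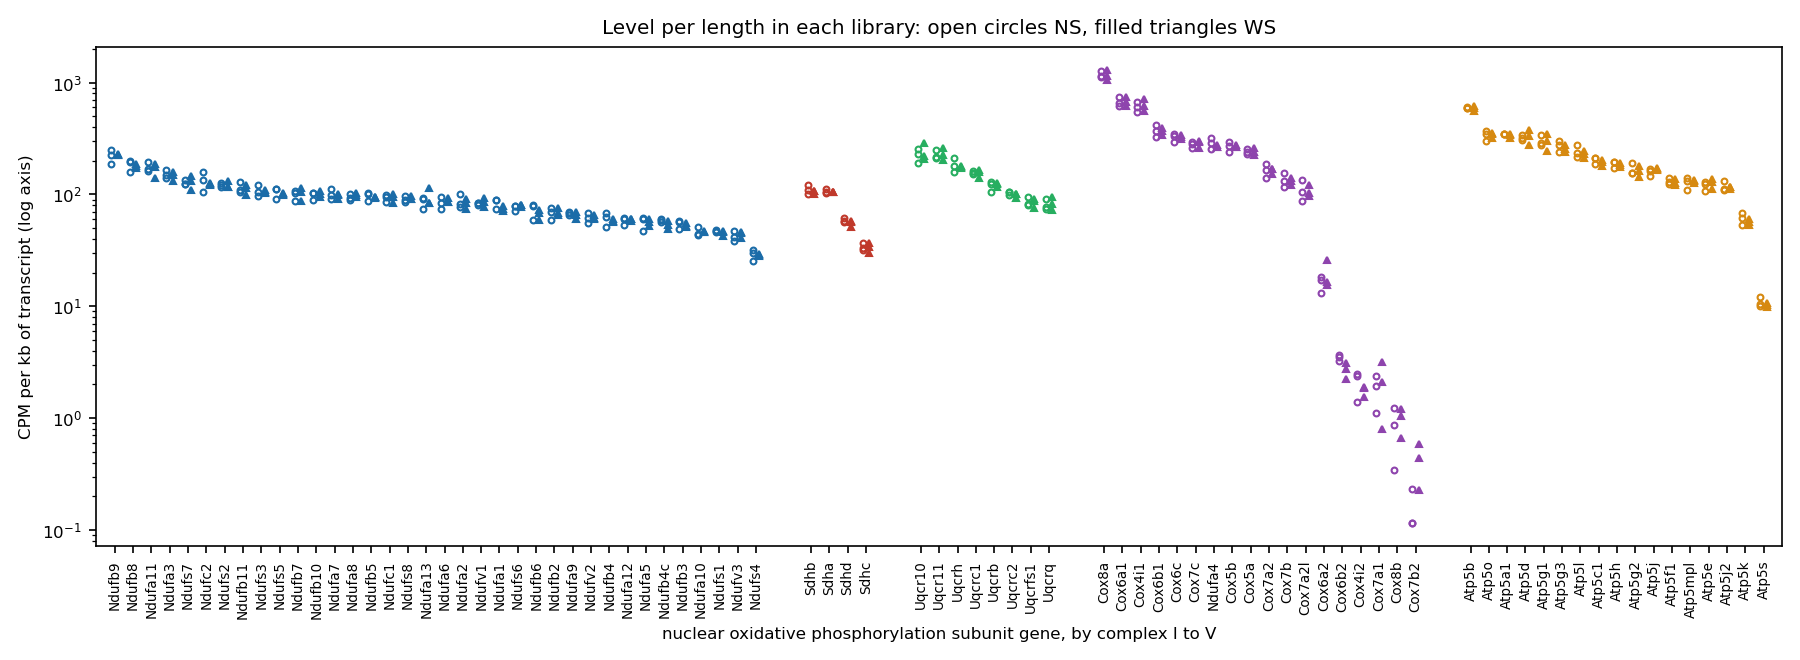
CPM per kb of transcript (y axis, log scale) of all 83 subunit genes (x axis, by complex and falling level) in each library, with open circles for NS and filled triangles for WS. Most genes lie between 28.9 and 1172 CPM per kb in both groups, and those below are Atp5s and the restricted complex IV isoforms.

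Nuclear subunit genes lie apart in the genome and are thought to be coordinated through shared promoter elements, among them those of NRF1, of the ETS factor GABP (also called NRF-2), of YY1 and of SP1. RefSeq windows of the GRCm38.p6 build, from 250 bases before to 50 after a transcript start, were matched for 66 of the 83 genes. The NRF1 letters GCGCATGCG were found on either strand in 8 of the 66 genes (12.1%), against 3.59% of 11566 other listed genes and 1.95% of all 27025 genes with a window. The YY1 letters AAGATGGCG were found in 7 (10.6%, against 3.00% and 1.64%). The ETS letters CCGGAAGT occurred in 7.58% of the subunit genes, 7.90% of the other listed genes and 4.31% of all genes, and the SP1 letters GGGCGG in 39.4%, 66.3% and 38.2%. These are matches of letters only, given without a test.

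The matches are shown with up to 10 bases on either side, in the direction of the gene, because these letters were more frequent in subunit genes than in the other listed genes, although most subunit genes held neither. Capitals mark the NRF1 letters, which read nearly the same on both strands and so form a run of 9 or 10 bases.
Ndufa8 (chr2:36049329-36049357, minus strand): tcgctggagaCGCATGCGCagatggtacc
Ndufa11 (chr17:56717692-56717721, plus strand): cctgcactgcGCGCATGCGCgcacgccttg
Uqcr11 (chr10:80406808-80406836, minus strand): atcgccttcaCGCATGCGCtatacgtctg
Uqcrc1 (chr9:108936668-108936697, plus strand): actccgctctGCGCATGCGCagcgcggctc
Cox6a1 (chr5:115349101-115349130, minus strand): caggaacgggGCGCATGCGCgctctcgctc
Atp5g2 (chr15:102671070-102671099, minus strand): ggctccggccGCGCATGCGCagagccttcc
Atp5k (chr5:108434430-108434459, minus strand): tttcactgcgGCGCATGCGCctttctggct
Atp5l (chr9:44920965-44920992, minus strand): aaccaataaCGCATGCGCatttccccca
Of these 8 matches, 7 began before the transcript start and 1 (Uqcrc1) after it.

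For YY1 the capitals mark the letters searched, which all 7 genes carried on their own strand and which contain the start codon triplet.
Ndufa9 (chr6:126849097-126849125, minus strand): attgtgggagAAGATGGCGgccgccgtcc
Ndufc1 (chr3:51408915-51408943, minus strand): cctgcggaacAAGATGGCGccgtccgtag
Ndufs4 (chr13:114388045-114388069, minus strand): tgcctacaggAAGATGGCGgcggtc
Ndufs6 (chr13:73328433-73328459, minus strand): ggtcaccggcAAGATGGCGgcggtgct
Ndufs7 (chr10:80249463-80249491, plus strand): ggccgaggccAAGATGGCGgcgctggcgg
Atp5j2 (chr5:145191500-145191528, minus strand): ccaggacttcAAGATGGCGtcactcggtg
Atp5j (chr16:84835046-84835074, minus strand): aagtgtaggaAAGATGGCGgagtcttagc
Except in Atp5j, where it began 88 bases before the start, the match began 23 to 36 bases after it. No gene held both motifs in these sets. Fold changes of the genes shown lay inside the range of the rest, from −0.12 for Atp5k to 0.079 for Atp5j.

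Genes that build or serve the complexes were read beside the subunits. Of 47 assembly factors, 16 had positive and 31 negative log2 fold changes (median −0.014), and 0 were called or had an unadjusted p under 0.05. Groups were separate in 3 genes, where 3.11% of all genes were so in the higher and 3.16% in the lower direction. Sdhaf4 and Ttc19, which help assemble complexes II and III, were lower, and Coa6, a copper-handling factor of complex IV, was higher. Sdhaf4 had 12.7, 12.5 and 14.0 CPM in NS and 10.5, 12.2 and 10.9 in WS, a log2 fold change of −0.22 ± 0.12 (SE). Coa6 had 10.8, 8.92 and 11.4 in NS and 12.4, 12.1 and 11.4 in WS, with its lowest WS value and highest NS value within 0.1 CPM. For Ttc19 the log2 fold change was −0.12 ± 0.085 (SE), led by 65.0 CPM in WS 1 against 75.6 or more elsewhere.

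Of 7 carriers and subunits outside the symbol rule, such as cytochrome c (Cycs) and cytochrome c1 (Cyc1), 3 were higher and 4 lower, with a median of −0.018. The 14 enzymes of the tricarboxylic acid cycle, which supply the electrons, divided 7 and 7 with a median of 0.0042. Among them only Idh3a had separate groups, where 3.16% of all genes were so in the lower and 3.11% in the higher direction. Idh3a had 251, 247 and 244 CPM in NS and 231, 236 and 221 in WS, a log2 fold change of −0.11 ± 0.069 (SE). Of 14 regulators of mitochondrial gene expression, 10 were higher and 4 lower, with a median of 0.037. Their log2 fold changes ran from −0.11 ± 0.12 for Gabpb1, a subunit of an ETS factor, to 0.19 ± 0.12 for the coactivator Ppargc1b (SE). The related coactivator Ppargc1a was at −0.060 ± 0.12, Nrf1 at 0.063 ± 0.13, Yy1 at 0.0053 ± 0.10 and the mitochondrial DNA factor Tfam at −0.043 ± 0.093. In these 3 lists 0 genes were called and 0 had an unadjusted p under 0.05 by edgeR's quasi-likelihood test.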

How the data were processed

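The methods state that reads were cleared of rRNA and of low quality, aligned with HISAT2 and tested with DESeq2 and PossionDis. Per the labels the build was mm10, and the counter is not given in the sources used here. The deposited table holds, for every gene, an estimated count averaged over the libraries, the SD and 6 z-scores (a score for each library). Counts were computed back as mean + z × SD and rounded; 91.0% of values of 13415 genes lay within 0.1 of a whole number. The column named 3NWS was taken as WS 3, because the deposited mean score of WS is its mean with the other WS columns within 0.00067. A second deposited table was not used, nor was any column of the authors' own fold changes or p-values. The tests had been planned for deposited counts or FPKM.

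Genes were tested with edgeR 4.0.16 (TMM, filterByExpr, quasi-likelihood F test, Benjamini-Hochberg adjustment over 13747 genes) in R 4.3.3, after a check on simulated data. CPM is scaled to 1000000 TMM-normalized counts. DESeq2 1.42.0, other normalizations and filters, a replicate block, a length and GC trend and leaving out each library were alternatives. Annotation was GENCODE M21 (GRCm38). Length was that of the shortest RefSeq-matched principal transcript, chosen after the longest one had given improbable levels, and Ndufa4 was placed with complex IV after the files were read. Of the 83 genes, 37 overlap another annotated gene, and strand use in counting is not stated, so their reads may be shared.

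Library pairs differed beyond sampling noise (lowest chi-square per degree of freedom 4.49). Same-numbered NS and WS libraries deviated together (r = 0.34, 0.23 and 0.12 over 13688 genes), with the third value near the limit of 0.1. The replicate numbers in the labels were therefore taken as pairing, but only in the fits with a replicate block. The fold changes, SEs, intervals and p-values given in the Results come from fits on group alone, without pairing. The study describes the unstimulated side as its control and 3 mice for the RNA-seq, but no label says which libraries share a mouse, so p-values measure the spread between these libraries.

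The genes and lists were chosen with earlier results of these data known, so no p is given for a list. Genes named with values were those called, those with separate groups, the 2 highest and 2 lowest fold changes of each complex (mean of at least 10 counts), the highest per length, the isoform pairs and the Sdh genes, with genes of related lists that had separate groups. Other genes were named after their values were seen.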

Additional observations from a re-analysis of the deposited data

How the results depend on the processing

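No subunit gene was called in any of the 15 other fits, or with no threshold on the fold change. The lowest adjusted p of any was 0.884 (Atp5d, edgeR without WS replicate 3). The median and summed log2 ratios of each complex moved by less than the spread between libraries in every fit that gave one, including Ndufa4 counted with complex I, which was added after seeing the data. The number at an unadjusted p under 0.05 and lower in WS was 1 (Ndufa1) with the length and GC trend removed, 1 with that and the replicate block, and 0 to 3 when single libraries were left out, the 3 (Ndufa1, Ndufb6, Ndufc2) without NS replicate 2. With the replicate block alone, as the pairing asks, the median over the 81 genes was −0.017 with 36 higher in WS and 0 at an unadjusted p under 0.05, and it changed no call.

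Leaving out single libraries moved the number higher in WS between 9 and 57 of 81: between 6 and 26 in complex I, 0 and 2 in complex II, 0 and 6 in complex III, 1 and 13 in complex IV, and 2 and 10 in complex V. The lowest came without NS replicate 2 and the highest without NS replicate 3, the libraries with the lowest and highest subunit levels. Of the 32 named genes tested, 22 changed sign in at least 1 of the 15 fits, none of them called. The Atp5g1 share was 8.14% with the longest transcript, which was tried first, and 40.9% with the shortest, which was chosen after seeing the data. With 3 libraries a group, precision is that of the intervals given, widest for genes of under 100 counts. Summed CPM was not recomputed under the replicate block, which changes no level, or under other filters on low counts. The limma fit for normalized values was not run, because counts could be computed back.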
